A study of Mus musculus with 24 samples.

Results

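The 38 genes described here code for collagens, the enzymes that modify and crosslink them, and other proteins of the extracellular matrix, and were measured by RNA-seq in a mouse cell line labelled as hypothalamic cells. They were chosen as a list of gene symbols and not by a rule on their values in these libraries. Earlier results of these data were known when the list was chosen. All 38 were found among the 56941 gene IDs of the count files, and 37 were among the 13281 genes with enough counts to be tested. The gene left out was Eln, which codes for elastin. The series compared mogroside V, a triterpene glycoside that sweetens monk fruit, in normal and high glucose. Its 24 files fall into 8 groups of 3 libraries, read from the sample titles. NGC was read as the normal-glucose control without mogroside V, and NG1, NG2 and NG3 as normal glucose with dose label 1, 2 or 3. HGC, HG1, HG2 and HG3 are the same 4 levels in high glucose. The concentrations named in the series design are 15, 60 and 160 µM. Which of them a dose label stands for cannot be read from the titles, and the glucose concentrations, exposure times and the name of the line are not given in the sources used here. All groups share the 1 cell line. Whether replicates were separate cultures is not stated. The p-values therefore judge differences only against the spread between these libraries, which may be technical.

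Fibrillar collagens are made as procollagen chains that are hydroxylated on proline and lysine in the endoplasmic reticulum, folded into triple helices with the help of a dedicated chaperone, secreted, and then crosslinked by lysyl oxidases outside the cell. Basement membranes are thinner sheets of collagen IV, laminin, nidogen and perlecan, and matricellular proteins such as thrombospondins and periostin bind to both kinds of matrix and to cell receptors. In the brain, most fibrillar collagen belongs to the meninges and the walls of blood vessels, and matrix around neurons is rich in proteoglycans instead.

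The main quantity is the level in CPM, the reads of a gene per 1000000 reads assigned to genes in that library. The files of HG2 replicate 3 and HG3 replicate 2 were identical in every line. They stayed out of all tests, which leaves 22 libraries with n = 2 in HG2 (replicates 1 and 2) and in HG3 (replicates 1 and 3), and the values of that file are given once as those of the library labelled HG2 or HG3. Gene counts ranged from 3396249 to 7773074 over the 22 libraries, with a median of 3864826. The members took 1.35 to 1.60% of gene counts in normal glucose (median 1.48%) and 1.51 to 1.67% in high glucose (median 1.60%), with overlap between the media. Of 13 markers of fibroblasts and pericytes, 12 were above 1 CPM, and none was at 0 in all libraries. Their summed level was 6237 to 7214 CPM in normal and 6264 to 6992 CPM in high glucose. Of 12 neuronal markers, 5 were above 1 CPM (summed 119.7 to 163 CPM in normal and 114 to 136 CPM in high glucose). The neuronal markers Snap25 and Rbfox3 had means of 0.0358 and 0.121 CPM, and Elavl4 was at 0 in every library. Of 14 hypothalamic neuropeptide markers, 1 was above 1 CPM, Gnrh1 with a mean of 3.26 CPM. Tubb3 and Map2, neuronal cytoskeleton genes, had 58.8 and 47.5 CPM. Most of the listed neuronal and hypothalamic neuropeptide markers were therefore at or near 0. The label names hypothalamic cells, and which cell type the line stands for was not tested. Between the media, 1 of 12 tested fibroblast and pericyte markers passed the test (7 positive, median log2 change 0.06), Acta2 (smooth muscle actin) with 0.24 ± 0.06 (SE, adjusted p = 0.00787). Of 5 tested neuronal markers 1 passed (2 positive, median -0.05), Map2 with -0.39 ± 0.08 (adjusted p = 8.53e-04). In the astrocyte, microglia and endothelial lists, 1 of 4, 1 of 3 and 1 of 1 tested markers passed. They were Sox9 (-0.21 ± 0.07, adjusted p = 0.0430), Csf1r (0.88 ± 0.22, from 5.36 to 9.42 CPM, adjusted p = 0.00533) and Emcn (-1.55 ± 0.49, from 2.11 to 0.728 CPM, adjusted p = 0.0341), while Itgam and Aqp4 were at 0 in every library. DESeq2 did not call Emcn. The summed level was 219 to 364 CPM in normal and 227 to 307 in high glucose for the astrocyte list, 127 to 216 and 157 to 199.9 for the microglia list, and 0 to 5.52 and 0.823 to 5.30 for the endothelial list. Sox9 (mean 177 CPM) and Dio2 (98.6 CPM) made up most of the astrocyte sum, with Gfap at 0.0594 and Aldh1l1 at 0.0824 CPM. Tmem119 (159 CPM) made up most of the microglia sum, with Aif1 at 0.115 and P2ry12 at 0.139 CPM. The part of the listed cell types in the differences below was not tested. In such bulk samples, fewer cells of a type and less RNA per cell cannot be told apart.

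Levels between genes were compared per kilobase of the main transcript in the GENCODE M21 annotation. Sparc, a secreted glycoprotein that binds collagen, was first of the 38 with a mean of 1001 CPM per kb. It was followed by the collagen I chain Col1a2 with 617, the small proteoglycan Bgn (biglycan) with 528, the collagen chaperone Serpinh1 (HSP47) with 277, Lox (lysyl oxidase) with 231 and the other collagen I chain, Col1a1, with 229.9 CPM per kb. At the low end were Lama5, a laminin alpha chain, with 1.97, Nid2, a nidogen, with 0.549, and Eln with 0.288 CPM per kb. Eln had 0 to 2.44 CPM over the 22 libraries and a mean of 1.25 ± 0.770 CPM in normal (SD, n = 12) and 0.948 ± 0.690 CPM in high glucose (SD, n = 10). Sparc stayed first and Eln last when the length of all exons together was used instead. The order below Sparc depends on the length chosen. With all exons, Col1a2 had 266, Serpinh1 258, Lox 229, Bgn 209 and Col1a1 208 CPM per kb, and Vcan had 8.71 in place of 54.3, since its main transcript is only 2.32 kb of 14.5 kb of exons. The plot of levels per kilobase shows that the order spans over 3 decades while single genes vary far less between libraries.

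**Figure D1:**
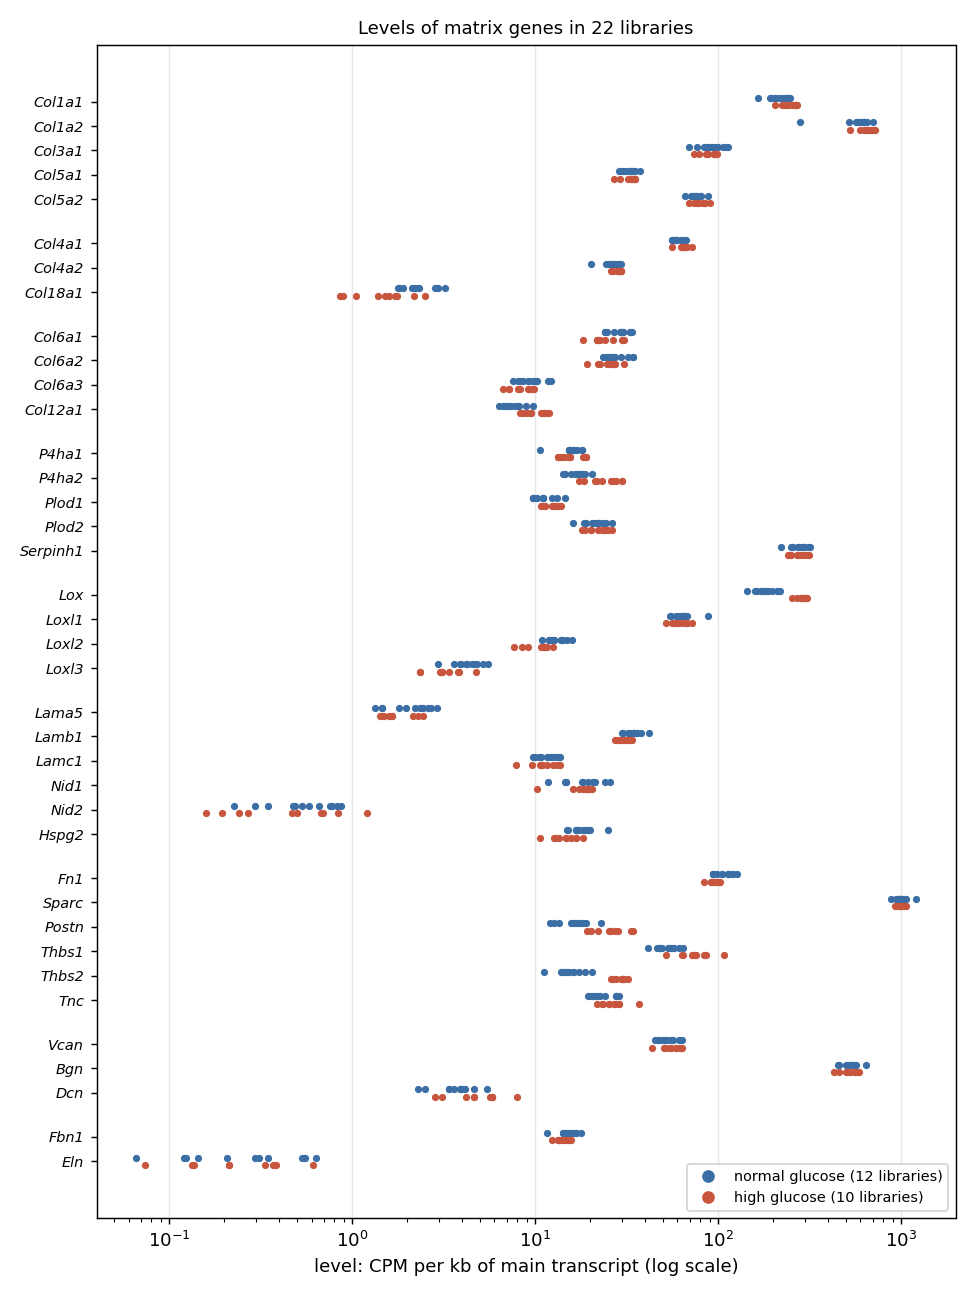
Level of each of the 38 genes in 22 libraries, in CPM per kb of the main transcript on a log axis, with genes grouped by role from fibrillar collagens at the top to elastic fibre genes at the bottom. Each point is 1 library, blue for normal glucose (12 libraries) and red for high glucose (10 libraries). Sparc is highest (mean 1001) and Eln lowest (mean 0.288), and the red and blue points of Lox and Thbs2 do not overlap.

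High and normal glucose were compared over all 4 treatment levels, as the mean of the 4 differences. Genes for matricellular proteins, for collagen XII and for 2 enzymes that modify collagen were higher in high glucose, among them Thbs2 (thrombospondin 2, 1.91-fold), Lox (1.62-fold), Postn (periostin, 1.61-fold), P4ha2 (a prolyl 4-hydroxylase subunit, 1.47-fold), Thbs1 (thrombospondin 1, 1.47-fold) and Col12a1 (collagen XII, 1.39-fold). Tnc (tenascin C) and Col1a1 rose by less, 1.19-fold and 1.17-fold. Col18a1, Loxl2, Hspg2 and Col6a1 fell. In all, 8 of the 37 tested members rose and 4 fell, 32.4% of those tested, where 10.1% of all tested genes were called (5.71% higher and 4.38% lower). Since earlier results of these data were known when the members were chosen, these shares are a description, and their difference was not tested. The median log2 change was 0.04 over the members and -0.01 over all tested genes, and 22 of the 37 were above 0. An unadjusted p under 0.05 was reached by 20 members and by 3010 of all 13281 tested genes. The test was edgeR's quasi-likelihood F test on the counts, adjusted by Benjamini-Hochberg over all 13281 genes with a threshold of 0.05, and the median SE of a member's log2 change was 0.07. The 10 high-glucose and 12 normal-glucose libraries did not overlap in CPM for 2 of the 37 members, Thbs2 and Lox, both higher, against 0.783% of all tested genes (0.572% higher and 0.211% lower). Without both of NG3 replicate 3 and HGC replicate 2, which earlier results of these data had set apart, 10 members rose and 2 fell. Of all 13172 genes tested in that fit, 1482 were called.

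**Figure D2:**
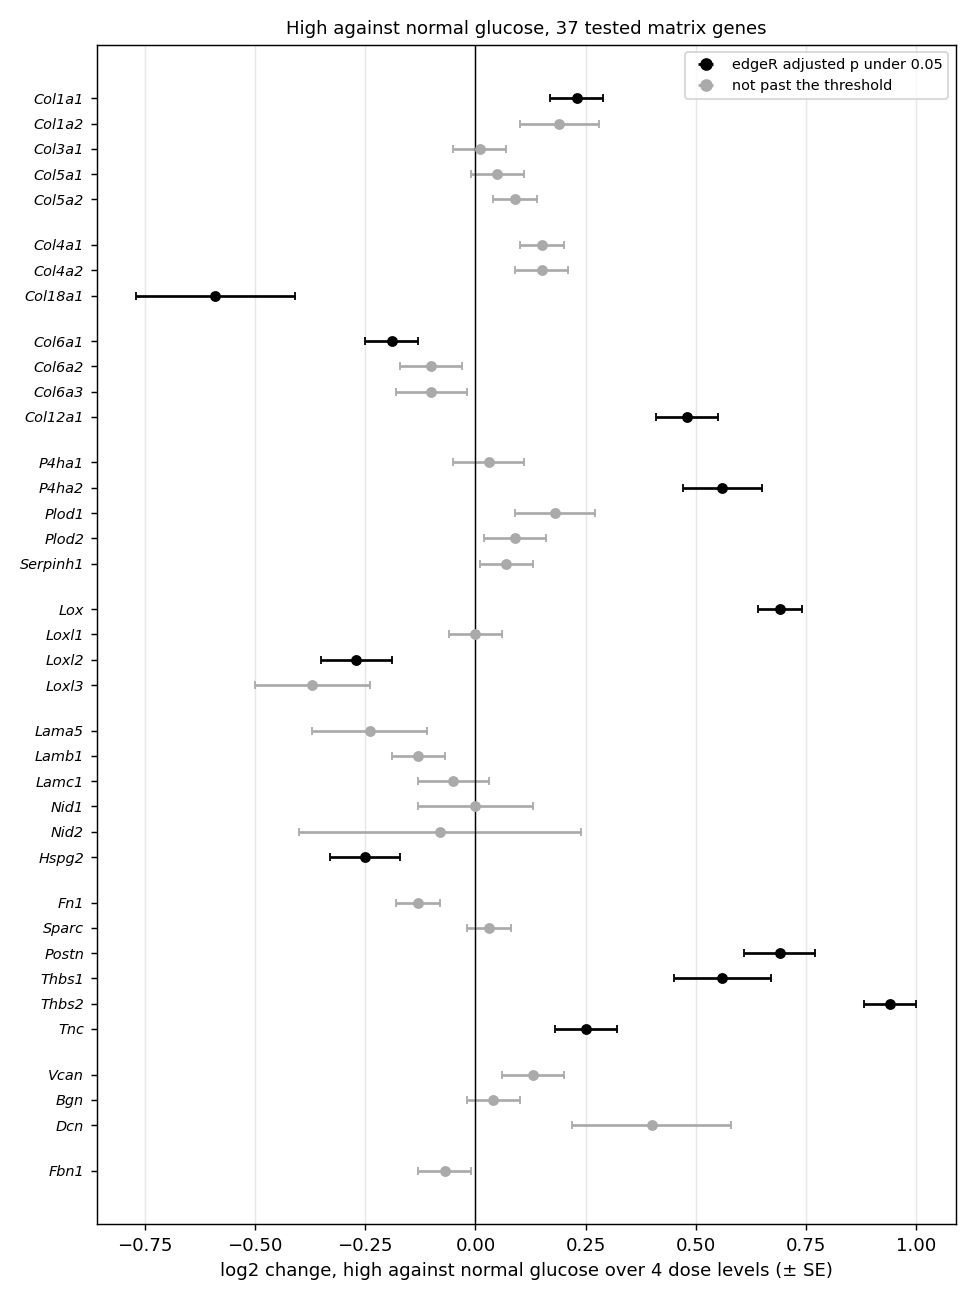
Log2 change between high and normal glucose over the 4 treatment levels for the 37 tested genes, grouped by role, with bars for 1 SE. Black points passed the threshold of edgeR's adjusted p (8 rose, 4 fell) and gray points did not. Thbs2 (0.94) is farthest to the right and Col18a1 (-0.59) farthest to the left.

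The 5 fibrillar collagen genes were all above 0 in this comparison, and 1 of them passed the test. Col1a1, the alpha 1 chain of collagen I, stood at 1371, 1151 and 1135 CPM in NGC, 1212, 1276 and 1219.9 in NG1, 1425, 1449 and 1418 in NG2, and 1319.7, 977 and 1470.1 in NG3. In high glucose it stood at 1578, 1219 and 1407 CPM in HGC, 1335, 1436 and 1589 in HG1, 1596 and 1502 in HG2, and 1373 and 1534 in HG3. The ranges of the media overlapped, and the lowest value was in NG3 replicate 2. Its log2 change was 0.23 ± 0.06 (SE, adjusted p = 0.00666). Col1a2, the partner chain, had the highest level of the fibrillar genes, 3264, 3360.4 and 3115 CPM in NGC, 3423, 3382 and 3339 in NG1, 3479, 3759.8 and 3253 in NG2, and 3031, 2796 and 1495 in NG3. Its high-glucose values were 3377, 3509 and 3628 CPM in HGC, 3851, 3790.4 and 3712 in HG1, 3511 and 3203 in HG2, and 2829 and 3506 in HG3. NG3 replicate 3 held less than any other library, and the log2 change of 0.19 ± 0.09 did not pass (adjusted p = 0.215). The ratio of Col1a1 to Col1a2 per kb was 0.309 to 0.438 in the other libraries of both media and 0.887 in NG3 replicate 3. By the length of all exons the median over libraries was 0.755, so the size of the ratio depends on the length chosen. That library also held the highest Sparc (2797 CPM), Bgn (1552 CPM) and Hspg2 (354 CPM) and the lowest Fbn1 (139 CPM) of the 22. The log2 changes of the other fibrillar genes were 0.01 ± 0.06 for Col3a1 (collagen III), 0.05 ± 0.06 for Col5a1 and 0.09 ± 0.05 for Col5a2, the collagen V chains that start fibrils.

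Of the basement membrane collagens, Col4a1 and Col4a2, which code for the chains of the common collagen IV trimer, gave the same small difference. Col4a1 had 392, 378 and 392 CPM in NGC, 372, 445 and 371 in NG1, 419.9, 425 and 389 in NG2, and 397, 379 and 417 in NG3 (median 392). High-glucose levels of Col4a1 were 418, 370.4 and 447 CPM in HGC, 426, 432 and 478 in HG1, 441 and 424 in HG2, and 438 and 419.7 in HG3 (median 429). Col4a2 ranged from 129.7 to 189.6 CPM (median 172) and from 168 to 191 CPM (median 187). Both overlapped between media, and neither change of 0.15 passed the test (SE 0.05 and adjusted p = 0.0593 for Col4a1, SE 0.06 and adjusted p = 0.115 for Col4a2). Col4a1 did pass with DESeq2 (adjusted p = 0.0064), with the identical file in HG2 or HG3 (0.0363 and 0.0365 for its adjusted p) and without the pair set apart (adjusted p = 0.0121). It also passed without NG1 replicate 2, NG2 replicate 2, HGC replicate 2 or any 1 NG3 library (adjusted p of 0.0248 to 0.0491). Col4a2 passed without NG3 replicate 3 (adjusted p = 0.0281) and without the pair set apart (adjusted p = 0.0425). The ratio of Col4a1 to Col4a2 per kb had medians of 2.23 in normal and 2.25 in high glucose. These genes lie head to head, and in RefSeq their first bases on mouse chromosome 8 overlap by 22 bases on opposite strands. Col18a1, whose collagen carries heparan sulfate and releases endostatin, fell. It had 13.63, 9.03 and 11.13 CPM in NGC, 10.65, 15.54 and 8.54 in NG1, 10.42, 14.12 and 11.04 in NG2, and 8.62, 10.21 and 13.97 in NG3. Its high-glucose levels were 7.66, 6.63 and 4.28 CPM in HGC, 11.97, 4.13 and 10.42 in HG1, 5.01 and 8.43 in HG2, and 7.27 and 8.20 in HG3. All but 1 of the high-glucose libraries, HG1 replicate 1, lay under the normal-glucose median of 10.8 CPM, though the ranges overlapped. The log2 change was -0.59 ± 0.18 (adjusted p = 0.0238). The call was lost without NG1 replicate 2 (adjusted p = 0.0572), without HG2 replicate 1 (adjusted p = 0.101) or without HG3 replicate 1 (adjusted p = 0.0631).

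Of collagen XII and the 3 collagen VI chains, which lie at the surface of fibrils and cells, Col12a1 rose, Col6a1 fell and the other chains did not pass the test. Col12a1 had 79.8, 72.7 and 79.4 CPM in NGC, 82.8, 91.5 and 84.9 in NG1, 89.8, 102 and 112 in NG2, and 93.5, 80.7 and 77.0 in NG3. In high glucose the values were 129, 109.7 and 109 CPM in HGC, 124, 95.4 and 104 in HG1, 128 and 137 in HG2, and 132 and 98.6 in HG3. The media overlapped only through NG2, whose replicates 2 and 3 were the highest of normal glucose, and the library labelled HG2 or HG3 held 143 CPM. The log2 change was 0.48 ± 0.07 (adjusted p = 2.41e-06). Col6a1, which forms a heterotrimer with Col6a2 and Col6a3, had 102, 99.1 and 98.5 CPM in NGC, 124, 120.3 and 124 in NG1, 135, 111 and 119 in NG2, and 135, 120.2 and 139 in NG3. High-glucose libraries held 123, 99.5 and 125 CPM in HGC, 89.5, 74.5 and 91.0 in HG1, 109 and 124 in HG2, and 93.4 and 89.1 in HG3. HG1 and HG3 lay below every normal-glucose library, while HGC and HG2 lay within their range. The log2 change was -0.19 ± 0.06 (adjusted p = 0.0450), with the adjusted p at or above 0.0525 in 14 of the 22 fits that left out 1 library, up to 0.166 without HG2 replicate 1, and at 0.0956 without the pair set apart. The same difference for Col6a2 was -0.10 ± 0.07 and for Col6a3 -0.10 ± 0.08, and neither passed.

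Of the 5 genes for folding and hydroxylation of procollagen, only P4ha2 passed the test. Its product is an alpha subunit of the enzyme that hydroxylates proline in collagen. P4ha2 had 39.7, 34.9 and 37.9 CPM in NGC, 40.2, 36.7 and 38.7 in NG1, 37.2, 45.4 and 39.2 in NG2, and 32.4, 31.6 and 41.9 in NG3. The high-glucose libraries had 59.4, 47.4 and 66.4 CPM in HGC, 38.9, 48.7 and 52.1 in HG1, 57.7 and 61.6 in HG2, and 66.4 and 41.3 in HG3. HG1 replicate 1 and HG3 replicate 3 lay within the normal-glucose range of 31.6 to 45.4 CPM and the other 8 above it, with the library labelled HG2 or HG3 at 45.8 CPM. The log2 change was 0.56 ± 0.09 (adjusted p = 1.40e-05). P4ha1, the alternative alpha subunit, ranged from 43.2 to 73.1 CPM in normal and 54.0 to 76.4 CPM in high glucose, with a log2 change of 0.03 ± 0.08 (adjusted p = 0.860). The ratio of P4ha2 to P4ha1 per kb was 0.783 to 1.76 in normal and 0.953 to 2.06 in high glucose by main transcript, with no test. By the length of all exons its median was 0.419, so which of the pair is higher depends on the length, whereas the comparison between media does not. Serpinh1, the chaperone of the collagen triple helix, had 621, 574 and 709 CPM in NGC, 584, 667 and 499 in NG1, 644, 619.9 and 663 in NG2, and 658, 572 and 721 in NG3 (median 633). Under high glucose Serpinh1 had 694, 550.2 and 610.0 CPM in HGC, 569, 565 and 622 in HG1, 690.2 and 711 in HG2, and 663 and 646 in HG3 (median 634). The media overlapped throughout, with a log2 change of 0.07 ± 0.06 (adjusted p = 0.541). The lysyl hydroxylases Plod1 and Plod2 had log2 changes of 0.18 ± 0.09 (adjusted p = 0.185) and 0.09 ± 0.07 (adjusted p = 0.541).

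The 250 bases before the RefSeq start of P4ha2 and P4ha1 are shown because the one gene rose and the other did not. Both lie on the plus strand of GRCm38.p6, P4ha2 at chr11:54100674-54100923 and P4ha1 at chr10:59323046-59323295, and neither window holds an annotated exon in GENCODE M21. Capitals mark matches, on either strand, to 6 motifs that were searched, which are TATAAA (bound by TBP), CCAAT (bound by NF-Y), GGGCGG (GC box), TGANTCA (AP-1), GGAATG (TEAD) and ACGTG (hypoxia-inducible factors).
P4ha2: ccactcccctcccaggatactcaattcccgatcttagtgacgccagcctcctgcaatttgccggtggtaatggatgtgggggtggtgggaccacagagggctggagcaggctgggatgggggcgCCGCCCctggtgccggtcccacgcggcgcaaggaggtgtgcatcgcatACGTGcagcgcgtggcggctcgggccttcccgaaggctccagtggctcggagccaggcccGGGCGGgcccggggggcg
P4ha1: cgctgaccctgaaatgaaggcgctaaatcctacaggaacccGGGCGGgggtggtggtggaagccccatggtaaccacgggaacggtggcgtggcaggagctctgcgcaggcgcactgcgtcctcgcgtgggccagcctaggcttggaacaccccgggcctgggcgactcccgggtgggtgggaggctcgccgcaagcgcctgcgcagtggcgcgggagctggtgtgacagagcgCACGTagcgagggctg
In P4ha2 the capitals are GGGCGG at 126 to 121 and 18 to 13 bases before the start and ACGTG at 78 to 74. In P4ha1 they are GGGCGG at 209 to 204 and ACGTG at 16 to 12 bases before the start. Both windows thus hold both motifs, and no match overlaps another. Over all 32851 RefSeq windows of this length, 32.7% held GGGCGG and 16.6% ACGTG. Windows were found for 24 of the 38 members (28 windows), of which 67.9% held GGGCGG and 17.9% ACGTG. A match describes letters only and does not show that a factor binds there.

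The lysyl oxidases, copper enzymes that oxidize lysine in collagen and elastin for crosslinking, went separate ways. Lox, with the highest level of the family, had 834, 680.4 and 759.9 CPM in NGC, 893, 826 and 863 in NG1, 999, 934 and 1004 in NG2, and 819, 773 and 1033 in NG3. In high glucose it had 1452, 1398 and 1363 CPM in HGC, 1277, 1351 and 1385 in HG1, 1428 and 1432 in HG2, and 1204 and 1344 in HG3. Every high-glucose library lay above every normal-glucose one, with 1388 CPM in the library labelled HG2 or HG3. The mean rose from 868 ± 108 CPM (SD, n = 12) to 1363 ± 75.9 CPM (SD, n = 10), a log2 change of 0.69 ± 0.05 (adjusted p = 3.40e-13). Loxl1, which is known for elastic fibre upkeep, had 181 to 290.0 CPM in normal and 172 to 237 CPM in high glucose, and its log2 change was -0.00 ± 0.06 (adjusted p = 0.986). Loxl2, which crosslinks collagen IV, had 66.0, 65.8 and 58.0 CPM in NGC, 67.6, 63.8 and 84.9 in NG1, 74.0, 79.6 and 75.3 in NG2, and 73.5, 67.5 and 63.8 in NG3. Its levels in high glucose were 61.3, 40.7 and 48.5 CPM in HGC, 66.9, 44.9 and 57.0 in HG1, 60.4 and 61.8 in HG2, and 59.2 and 59.3 in HG3. The ranges overlapped, with HGC replicates 2 and 3 and HG1 replicates 2 and 3 below all normal-glucose libraries. The log2 change of Loxl2 was -0.27 ± 0.08 (adjusted p = 0.0236). That call was lost in 8 of the 22 fits that left out 1 library (NG1 replicate 3, NG3 replicate 1, HGC replicate 2, HG1 replicate 2 and each HG2 and HG3 library), with adjusted p of 0.0505 to 0.0697. Loxl3 ranged from 12.1 to 22.7 CPM in normal and 9.60 to 19.6 CPM in high glucose, and its log2 change of -0.37 ± 0.13 did not pass (adjusted p = 0.0610). It passed without NGC replicate 1, NG1 replicate 2, HG1 replicate 1 or HG3 replicate 3 and with the identical file in HG2 or HG3 (adjusted p of 0.031 to 0.0496). Of its exon bases, 11.6% overlap Htra2 on the other strand. The ratio of Lox to Loxl1 per kb was 2.40 to 3.34 in normal and 3.92 to 5.33 in high glucose, and that of Lox to Loxl2 was 11.4 to 18.2 and 21.4 to 38.5. Neither ratio overlapped between media, which describes the same counts and was not tested.

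The 6 genes for laminins, nidogens and perlecan had estimates at or below 0 in this comparison, and 1 of them passed. The estimates of Lamc1, Nid1 and Nid2 lay near 0 and took the other sign in 1, 16 and 6 of 29 alternatives. Hspg2, the core protein of the heparan sulfate proteoglycan perlecan, had 247, 262 and 212 CPM in NGC, 261, 239 and 244 in NG1, 282, 237 and 278 in NG2, and 267, 216 and 354 in NG3. With high glucose it had 237, 192 and 210.1 CPM in HGC, 222, 184 and 152 in HG1, 181 and 239 in HG2, and 261 and 210.4 in HG3. The ranges overlapped and the lowest value was in HG1 replicate 3. The log2 change was -0.25 ± 0.08 (adjusted p = 0.0273). That call was lost in 7 fits that left out 1 library (NGC replicate 2, NG1 replicate 1, NG2 replicate 1, HGC replicate 2, HG1 replicate 3, HG2 replicate 1 and HG3 replicate 3), with adjusted p from 0.0514 to 0.133. It was also lost without the pair set apart (adjusted p = 0.0809). Lamb1 and Lamc1, the beta 1 and gamma 1 chains shared by many laminins, had log2 changes of -0.13 ± 0.06 (adjusted p = 0.155) and -0.05 ± 0.08 (adjusted p = 0.776). Lama5 had -0.24 ± 0.13 (adjusted p = 0.265). The nidogens, which link laminin to collagen IV, had -0.00 ± 0.13 for Nid1 and -0.08 ± 0.32 for Nid2, whose 0.774 to 5.87 CPM give the largest SE of all members.

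Of fibronectin and the matricellular proteins, 4 of 6 rose and none fell. Thbs2, an inhibitor of angiogenesis that also shapes collagen fibrils, had 66.0, 81.8 and 82.4 CPM in NGC, 91.0, 84.5 and 95.1 in NG1, 121, 102 and 87.5 in NG2, and 96.3, 87.5 and 110.5 in NG3. In high glucose it had 176, 158 and 164 CPM in HGC, 180.0, 189.6 and 174 in HG1, 179 and 179 in HG2, and 154 and 158 in HG3. No library of one medium reached the range of the other, and the library labelled HG2 or HG3 held 197 CPM. The mean rose from 92.1 ± 14.3 CPM (SD, n = 12) to 171 ± 11.9 CPM (SD, n = 10), a log2 change of 0.94 ± 0.06 (adjusted p = 1.40e-14). Postn, which binds collagen I and integrins, had 40.5, 38.5 and 43.1 CPM in NGC, 58.6, 52.3 and 50.0 in NG1, 72.9, 51.8 and 53.8 in NG2, and 60.3, 56.8 and 55.9 in NG3. The high-glucose values were 81.9, 61.1 and 70.1 CPM in HGC, 90.3, 107 and 109 in HG1, 81.3 and 83.3 in HG2, and 87.7 and 64.2 in HG3. NGC was lowest and HG1 highest, and the media overlapped through NG2 replicate 1 and 3 high-glucose libraries. The log2 change of Postn was 0.69 ± 0.08 (adjusted p = 1.18e-08).

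Thbs1, an activator of latent TGF-beta, had 290.2, 359 and 278 CPM in NGC, 329.8, 318 and 270.1 in NG1, 283, 280.3 and 375 in NG2, and 336, 312 and 242 in NG3. With high glucose, Thbs1 had 631, 303 and 419.6 CPM in HGC, 436, 489 and 373 in HG1, 426 and 500.4 in HG2, and 446 and 376 in HG3. HGC held both the lowest and the highest high-glucose value, and the other HG libraries but 1 (HG1 replicate 3) lay above the highest NG library. The log2 change was 0.56 ± 0.11 (adjusted p = 0.00399). Tnc, an anti-adhesive glycoprotein of remodelling tissue, ranged from 139 to 205 CPM (median 158) in normal and 155 to 262 CPM (median 186) in high glucose. Its log2 change of 0.25 ± 0.07 (adjusted p = 0.0177) did not pass without HG2 replicate 2 (adjusted p = 0.0646) or without HG3 replicate 1 (adjusted p = 0.115). Fn1 (fibronectin) went the other way, with 778 to 1053 CPM in normal and 701 to 849 CPM in high glucose, but did not pass in edgeR (log2 change -0.13 ± 0.05, adjusted p = 0.125). DESeq2 called Fn1 (adjusted p = 0.0485). Sparc had 2262, 2286 and 2224 CPM in NGC, 2287, 2222 and 2344 in NG1, 2382, 2443 and 2258 in NG2, and 2149, 2039 and 2797 in NG3 (median 2274). Under high glucose Sparc had 2393, 2454 and 2277 CPM in HGC, 2325, 2233 and 2193 in HG1, 2309 and 2273 in HG2, and 2126 and 2388 in HG3 (median 2293). The high-glucose libraries lay within the normal-glucose range, with a log2 change of 0.03 ± 0.05 (adjusted p = 0.769).

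The 250 bases before the RefSeq start are shown for Thbs2, the member with the largest change, and for Postn, at the second of its 2 annotated starts. Thbs2 lies on the minus strand at chr17:14694263-14694512 and Postn on the plus strand at chr3:54360857-54361106 of GRCm38.p6, both windows without an annotated exon. Capitals mark the same 6 motifs on either strand, and each line reads 5′ to 3′ toward the gene.
Thbs2: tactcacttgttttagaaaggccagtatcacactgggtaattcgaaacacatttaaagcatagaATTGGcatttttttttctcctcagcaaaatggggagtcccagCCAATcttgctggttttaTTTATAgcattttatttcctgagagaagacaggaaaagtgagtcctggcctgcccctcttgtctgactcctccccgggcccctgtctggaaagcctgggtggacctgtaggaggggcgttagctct
Postn: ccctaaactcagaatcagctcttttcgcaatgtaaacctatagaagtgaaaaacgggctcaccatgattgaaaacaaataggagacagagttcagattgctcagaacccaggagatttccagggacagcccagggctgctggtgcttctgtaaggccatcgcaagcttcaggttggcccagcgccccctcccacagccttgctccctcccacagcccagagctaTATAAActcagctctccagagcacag
In Thbs2 the capitals are CCAAT at 186 to 182 and 144 to 140 bases before the start and TATAAA at 126 to 121. In Postn they are TATAAA at 26 to 21 bases before the start. Over all 32851 windows 12.4% held TATAAA and 33.8% CCAAT, against 21.4% and 28.6% of the 28 member windows. TGANTCA was in 6.75% of all and 3.57% of member windows, and GGAATG in 12.6% and 14.3%. The window at the other Postn start, chr3:54359017-54359266, held none of the 6 motifs.

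Of the 3 proteoglycan genes, 0 passed the test in edgeR or DESeq2, with 1 (Dcn) at an unadjusted p under 0.05. Bgn, which binds collagen I, had 1379.8, 1113 and 1212 CPM in NGC, 1287, 1253 and 1254 in NG1, 1318, 1310.3 and 1337 in NG2, and 1286, 1095 and 1552 in NG3 (median 1286). Under high glucose Bgn had 1350.1, 1270.4 and 1214 CPM in HGC, 1106, 1047 and 1275 in HG1, 1408 and 1351 in HG2, and 1228 and 1432 in HG3 (median 1273). The media overlapped, with a log2 change of 0.04 ± 0.06. Dcn (decorin), its close relative, had 4.04 to 9.61 CPM and 5.01 to 14.0 CPM, with a log2 change of 0.40 ± 0.18 (adjusted p = 0.152). Its 3 highest values were 14.0 CPM in HGC replicate 2 and 10.3 CPM in each of HGC replicate 1 and HG1 replicate 2. Vcan (versican), the large hyaluronan-binding proteoglycan, had 105 to 147 CPM and 101 to 148 CPM, with 0.13 ± 0.07 (adjusted p = 0.261). Fbn1, the fibrillin of elastic fibre microfibrils, had 177, 170.2 and 171 CPM in NGC, 196, 189 and 199.7 in NG1, 213, 176 and 185 in NG2, and 187, 201 and 139 in NG3. Under high glucose Fbn1 had 169, 189 and 186 CPM in HGC, 161, 149 and 175 in HG1, 181 and 162 in HG2, and 175 and 159.6 in HG3. These lay within the normal-glucose range of 139 to 213 CPM, whose low end was NG3 replicate 3 alone. The next lowest normal-glucose value was 170.2 CPM in NGC replicate 2. In high glucose 169, 161, 149, 162 and 159.6 CPM lay below it and 189, 186, 175, 181 and 175 CPM above it. The log2 change of Fbn1 was -0.07 ± 0.06 (adjusted p = 0.578). Of the exon bases of Fbn1, 20.1% overlap Gm9913 on the other strand, which cannot be told apart where the counting does not use strand.

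In the controls alone, HGC against NGC, 5 members rose and none fell in edgeR's test, 13.5% of those tested, against 2.28% of all tested genes (1.89% higher and 0.392% lower). They were Thbs2, Lox, Postn, Col12a1 and P4ha2. Thbs2 had 66.0, 81.8 and 82.4 CPM in NGC and 176, 158 and 164 CPM in HGC, a log2 change of 1.12 ± 0.12 (adjusted p = 3.27e-08). Lox had 834, 680.4 and 759.9 CPM in NGC and 1452, 1398 and 1363 CPM in HGC, a change of 0.90 ± 0.10 (adjusted p = 5.87e-08). For all 5 genes each HGC library lay above each NGC library, which also held for Col1a2 and Dcn, not called in edgeR. For Col18a1, Loxl3 and Lamb1, also not called in edgeR, each HGC library lay below each NGC library. The share of all tested genes without overlap in the controls was not computed. The changes of the other called genes were 0.81 ± 0.15 for Postn (adjusted p = 4.76e-04), 0.59 ± 0.13 for Col12a1 (adjusted p = 0.00503) and 0.62 ± 0.17 for P4ha2 (adjusted p = 0.0314). Without HGC replicate 1, 3 members were called, and Col12a1 had an adjusted p of 0.0549. P4ha2 kept its call in 1 of the 6 fits that left out a control library, and its adjusted p rose to 0.194 without HGC replicate 3. The adjusted p of P4ha2 was 0.0708, 0.145 and 0.0816 without NGC replicate 1, 2 or 3 and 0.0927 without HGC replicate 1. Lamb1 (log2 change -0.38 ± 0.11, adjusted p = 0.0570) and Dcn (1.03 ± 0.33, adjusted p = 0.0942) were next and did not pass in edgeR, while DESeq2 called Lamb1 as lower (adjusted p = 0.0135). Thbs1, with 0.55 ± 0.22 (adjusted p = 0.285), passed without HGC replicate 2 (0.77 ± 0.18, adjusted p = 0.0357).

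In the treated libraries, which share none with the controls, 8 members rose and 2 fell in high glucose, 27.0% against 8.10% of all tested genes (4.69% higher and 3.41% lower). The log2 changes were 0.87 ± 0.07 for Thbs2, 0.63 ± 0.06 for Lox, 0.64 ± 0.09 for Postn, 0.44 ± 0.08 for Col12a1 and 0.53 ± 0.10 for P4ha2. The 5 genes called in the controls were thus called here as well. Thbs1 (0.56 ± 0.13, adjusted p = 0.0155), Tnc (0.30 ± 0.08, adjusted p = 0.0169) and Col1a1 (0.24 ± 0.07, adjusted p = 0.0231) also rose. Thbs1 and Tnc did not pass without HG2 replicate 2 (adjusted p = 0.0574 and 0.0752) or without HG3 replicate 1 (adjusted p = 0.0609 and 0.141). Col1a1 did not pass without HG1 replicate 3, HG2 replicate 1 or HG3 replicate 3 (adjusted p of 0.057, 0.079 and 0.0944). Col6a1 fell by 0.32 ± 0.07 on the log2 scale (adjusted p = 0.00306), whereas its value in the controls was 0.22 ± 0.12. Hspg2, with -0.28 ± 0.09 (adjusted p = 0.0448), kept its call in 5 of the 16 fits that left out a treated library, with an adjusted p of up to 0.236 without HG2 replicate 1.

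**Figure D3:**
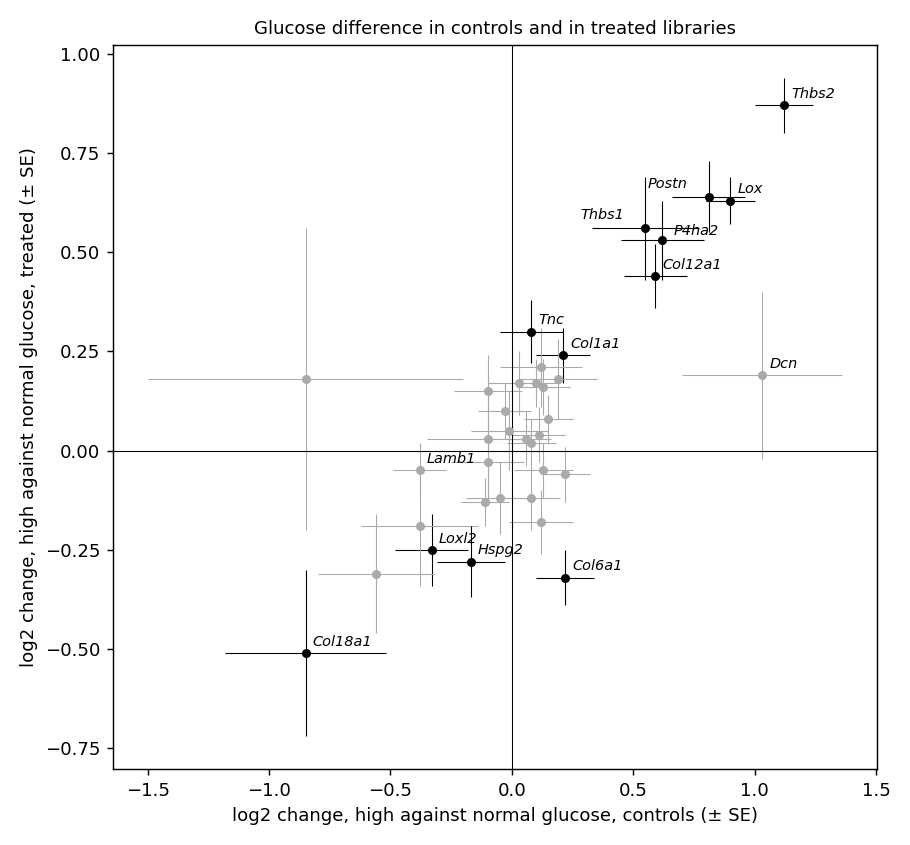
Log2 change between high and normal glucose in the controls (x axis) and in the treated libraries (y axis) for the 37 tested genes, with bars for 1 SE. Black points passed the threshold over all 4 levels, and Dcn and Lamb1 are named as the members next to the threshold in the controls. Thbs2 is at 1.12 and 0.87, and Col6a1 is at 0.22 and -0.32.

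By treatment level, the glucose difference of Thbs2 was 1.12 ± 0.12 on the log2 scale in controls, 1.05 ± 0.12 at dose label 1, 0.83 ± 0.13 at 2 and 0.74 ± 0.13 at 3. Lox had 0.90 ± 0.10, 0.68 ± 0.10, 0.59 ± 0.11 and 0.61 ± 0.11. Both passed the test at each of the 4 levels, with adjusted p of at most 0.00181. Postn had 0.81 ± 0.15, 0.97 ± 0.15, 0.50 ± 0.16 and 0.46 ± 0.16, and the values at labels 2 and 3 did not pass (adjusted p = 0.175 and 0.170). Thbs1 gave 0.55, 0.54, 0.61 and 0.53, the narrowest spread of the 8 members that rose, with no level past the test by itself. Col6a1 differed in sign, with 0.22 ± 0.12 in controls, -0.49 ± 0.12 at label 1 (adjusted p = 0.0198), -0.02 ± 0.13 at label 2 and -0.46 ± 0.13 at label 3 (adjusted p = 0.0810). Of the 37 members, 18 had the same sign at all 4 levels, and the share over all tested genes was not computed.

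Mogroside V was compared with the controls within each medium, as the mean of the 3 dose labels. These comparisons share the NGC or HGC libraries with the comparisons above. In normal glucose no member passed edgeR's test, and no gene at all did (0% called). An unadjusted p under 0.05 was reached by 5 members and 1120 genes. DESeq2 called 3 members (Col3a1, Col6a1 and Thbs2) and 116 of all 2511 genes it tested here. The lowest p was that of Postn, whose 9 treated libraries held 50.0 to 72.9 CPM against 40.5, 38.5 and 43.1 CPM in NGC, a log2 change of 0.44 ± 0.12 (adjusted p = 0.175). Thbs2 had 84.5 to 121 CPM against 66.0 to 82.4 CPM in NGC (0.30 ± 0.10, adjusted p = 0.314). Col6a1 had 111 to 139 CPM against 98.5 to 102 CPM in NGC (0.28 ± 0.10, adjusted p = 0.324). For these 3 of the 37 members all 9 treated libraries lay above all 3 controls, against 1.07% of all tested genes (0.407% lay below all 3). In high glucose no member had all 7 treated libraries on one side of the 3 HGC libraries, where 1.76% of all tested genes did (0.843% above and 0.919% below).

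In high glucose no member and no gene passed for treatment (0% called), with 3 members and 679 genes at an unadjusted p under 0.05 and no member called by DESeq2. Col6a1 had the lowest p, with 123, 99.5 and 125 CPM in HGC against 89.5, 74.5 and 91.0 CPM in HG1, 109 and 124 CPM in HG2 and 93.4 and 89.1 CPM in HG3. Its log2 change was -0.26 ± 0.10 (adjusted p = 0.927). The difference between the media in the treatment response, tested as an interaction, called 1 gene (0.00753%) and no member, with 5 members and 1126 genes at an unadjusted p under 0.05. Col6a1 again had the lowest p of the members, with a difference of -0.54 ± 0.14 (adjusted p = 0.187). DESeq2 called it (adjusted p = 0.00741), as 1 of 77 genes called among the 2511 it tested here. The plot of CPM by group shows the treated libraries of Col6a1 above NGC in normal glucose. In high glucose HG1 and HG3 lay below all HGC libraries, and HG2 overlapped them.

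**Figure D4:**
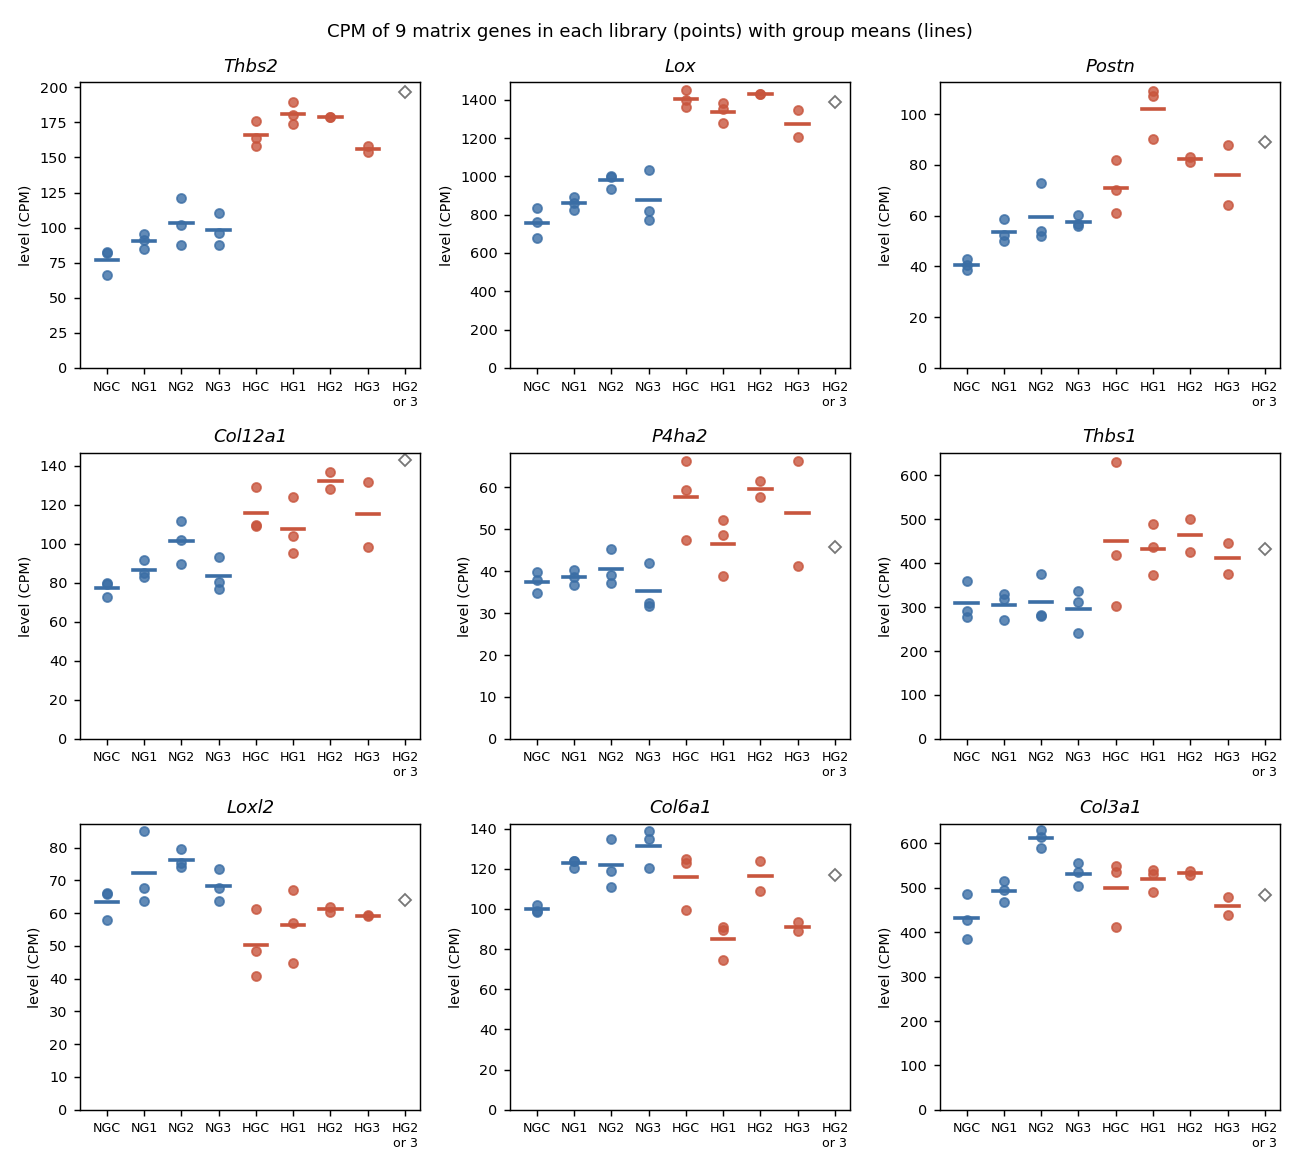
CPM of 9 of the genes in each library by group, on linear axes from 0, with points for libraries and lines for group means. Normal glucose is blue, high glucose red, and the open diamond is the library labelled HG2 or HG3, which entered no test. Thbs2 and Lox separate by medium, whereas Col6a1 is lowest in HG1 and HG3 and Col3a1 highest in NG2.

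No single dose label changed a member against its control in edgeR's test, and 0 of the 37 were called in each of the 6 comparisons. NG2 against NGC had 8 members and 858 of all 13281 tested genes at an unadjusted p under 0.05, and called 1 gene of all (0.00753%). Col3a1 had the lowest p there, with 427, 384 and 485 CPM in NGC and 631, 589 and 615 CPM in NG2. The groups did not overlap, and the log2 change was 0.45 ± 0.10 (adjusted p = 0.170). It passed with DESeq2 (adjusted p = 0.00232, with Lox as the other member called), with no filter on low counts (adjusted p = 0.0463) and without the pair set apart (adjusted p = 0.0129). Of all tested genes these settings called 35 of 5801, 21 of 28284 and 17 of 13172. In NG1, 2 members and 648 genes had an unadjusted p under 0.05 (0% of all genes called), and Postn had the lowest of the members (0.37 ± 0.15, adjusted p = 0.963). In NG3, 6 members and 1377 genes did (0.128% of all genes called), and Postn again had the lowest p of the members (0.44 ± 0.15, adjusted p = 0.219). HG1 had 4 such members and 1033 such genes, with Col6a1 at -0.44 ± 0.12 and Postn at 0.53 ± 0.14 (adjusted p = 0.285 each). HG2 had 710 such genes and 1 such member, Plod2 with 0.38 ± 0.16 (adjusted p = 0.899). HG3 had 599 such genes and 2 such members, with Col6a1 at -0.35 ± 0.13 (adjusted p = 0.999). In this main edgeR fit no gene at all was called in the high-glucose dose comparisons (0%). For HG1 against HGC, edgeR called 50 of 28284 genes with no low-count filter and 14 of 11526 with only these groups fitted. DESeq2 called no member in NG1, NG3, HG1, HG2 or HG3. Of all genes it tested, it called 157 of 5253 in NG3, 25 of 1415 in HG1 and 0 of 28284 in each of NG1, HG2 and HG3.

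Other matrix genes, from lists outside the 38, were read in the same comparison of high against normal glucose over all levels. Of 12 tested further collagens, 2 rose and 3 fell, among them Col11a1 (0.51 ± 0.08, adjusted p = 2.86e-05), a partner of collagen V in fibrils, and Col4a5 (-0.31 ± 0.09, adjusted p = 0.0271), a minor collagen IV chain. DESeq2 called 2 rises and 2 falls among them. Of 21 further genes for collagen assembly and crosslinking, 1 rose and none fell, and that gene was Tgm2, a transglutaminase (0.48 ± 0.06, adjusted p = 3.44e-07). Of 9 laminin and basement membrane genes, Smoc1 rose (0.48 ± 0.08) and Agrn fell (-0.40 ± 0.13) in edgeR's test, while DESeq2 called 1 rise and 0 falls in that list. Of 20 elastic fibre genes and glycoproteins, 3 rose and 3 fell, with Fbln5 at 0.28 ± 0.06 and Ltbp3 at -0.54 ± 0.11. Of 7 further proteoglycans, 0 passed edgeR's test and 0 passed DESeq2, with 1 at an unadjusted p under 0.05. Of 15 matrix receptors, 0 passed edgeR's test, with 2 at an unadjusted p under 0.05, and DESeq2 called 2 as higher. Of 14 tested TGF-beta genes, 5 rose, 0 fell and 9 did not pass edgeR's test, while DESeq2 called 4 rises and 0 falls. In that list the ligand Tgfb2 rose from 24.2 ± 3.38 to 40.9 ± 6.90 CPM (SD, n = 12 and 10), a log2 change of 0.76 ± 0.09 (adjusted p = 1.15e-07). The background of 10.1% called holds for these lists too.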

How the data were processed

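Polyadenylated RNA of 24 samples of a mouse cell line was purified (PureLink RNA Mini Kit) and made into libraries (VAHTS Universal V8 kit), per the labels' protocols. The authors deposited unnormalized whole read counts for each gene, with 1 file per sample. The build GRCm39 and the tools HTSeq 1.99.2, STAR 2.7.5c, FastQC 0.11.9 and DESeq2 3.16 come from the submitters' processing notes, and a strand setting was not given in the sources used here. Coordinates other than those of the RefSeq promoter windows (GRCm38.p6) are not printed, because the annotation used here is of another build than GRCm39. Each file has 56941 gene IDs and 5 summary lines, which stayed out of totals and tests. Reads outside genes were 14.4 to 20.6% of a library.

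CPM is the count divided by the library's gene counts, times 1000000. Tests were robust quasi-likelihood F tests of edgeR 4.0.16 (R 4.3.3) on group means, with TMM scaling and filterByExpr at its defaults (14 residual degrees of freedom, biological coefficient of variation 0.149). P-values were adjusted by Benjamini-Hochberg within each of 12 comparisons over 13281 genes, with a threshold of 0.05, and SEs were taken from the estimate and its F statistic. The identical file was left out of the 22-library fit. Replicate libraries of a group differed by more than sampling noise (chi-square over its degrees of freedom from 3.38 to 21.0). Pairs with NG3 replicate 3 gave 13.5 and 21.0. Pairs with HGC replicate 2 gave 6.26 and 4.80, and NGC replicates 1 and 3 gave 7.31, so HGC replicate 2 did not stand apart by this measure. The scripts were tested on simulated data. Members, lists, tests and alternatives (DESeq2 1.42.0, RLE factors, no filter, other sets of samples, each library left out, the replicate number as a block, the identical file used once) were chosen with earlier results of these data known. Every library's value was to be given for members called in the controls, the 8 called members with the largest changes over all levels, and the highest member of each role, and otherwise ranges, with the lowest p where a comparison called none. From each other list up to 2 rises and 2 falls were named. Some results the rule takes are not reported here.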

Additional observations from a re-analysis of the deposited data

How the results depend on the processing

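The count of 12 members called between the media over all 4 levels was 11 to 14 under DESeq2, RLE factors, no low-count filter, the replicate block, the identical file placed in HG2 or HG3 and the pair of NG3 replicate 3 and HGC replicate 2 left out. Calls over all tested genes in these settings ran from 1284 of 28284 (no low-count filter) to 1482 of 13172 (the pair left out). The main fit called 1340 of 13281. The count of 12 members ranged from 8 (without HG2 replicate 1 or HG3 replicate 1) to 14 (without NG3 replicate 3) over 22 fits that each left out 1 library. The calls over all tested genes moved the same way. They were 958 of 14039 without HG2 replicate 1, 1079 of 14033 without HG3 replicate 1 and 1597 of 13234 without NG3 replicate 3. In the controls the count of 5 ranged from 3 to 6 over such fits and in the treated libraries the count of 10 ranged from 8 to 10. In the controls, 258 of 13269 genes were called without HGC replicate 1 (3 members) and 166 of 13227 without HGC replicate 2 (6 members). In the treated libraries, all-gene calls ran from 654 of 14039 (without HG2 replicate 1) to 1277 of 13234 (without NG3 replicate 3). Over all levels Col1a1, Col12a1, P4ha2, Lox, Postn, Thbs1 and Thbs2 kept their calls in all 29 alternatives, Col6a1 lost its call in 17, Loxl2 and Hspg2 in 8 each, Col18a1 in 3 and Tnc in 2. In the controls Lox, Postn and Thbs2 kept theirs in all 14. None of the 12 changes called over all levels turned its direction, whereas 6 members not called and near 0 (Col3a1, P4ha1, Loxl1, Lamc1, Nid1 and Nid2) had the other sign in 1 to 16 of the 29. With 0 members called in the main test, DESeq2 called 3 for treatment in normal glucose, 1 for the interaction and 2 for NG2 against NGC. Of all genes it tested, it called 116 of 2511, 77 of 2511 and 35 of 5801 there. For NG2 against NGC, 1 member (Col3a1) was called with no low-count filter and 1 (Col3a1) without the pair set apart, beside 21 of 28284 and 17 of 13172 tested genes. The cause of these differences was not tested. Leaving out 1 library gave 0 in each of these comparisons. Deviations of same-numbered libraries correlated from -0.11 to 0.17 (median 0.01, 70 pairs), and those of other pairs from -0.13 to 0.13 (median -0.01, 141 pairs). Of the 22 libraries, 7 correlated best with one of their own number. No shared deviation by replicate number was thus seen. Whether samples were paired cannot be told from this, since paired samples need not share a deviation. With the replicate block 12, 5 and 10 members were called between the media over all levels, in the controls and in the treated libraries. At the depth of 3396249 to 7773074 counts, a member's median SE was 0.13 on the log2 scale for 3 against 3 libraries, which limits what a single dose comparison could show.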
